A study of Mus musculus with 11 samples.

Results

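The insulin-like growth factor (IGF) system was followed through 10 genes of 29955 gene symbols, namely the ligands Igf1 and Igf2, the receptors Igf1r and Igf2r, and the binding proteins Igfbp2, Igfbp3, Igfbp4, Igfbp5, Igfbp6 and Igfbp7. The genes were taken by symbol, each as the sense row that the authors flagged as representative, and all 10 were found in each of the 11 RNA-seq libraries. Levels are FPKM, the mapped bases per kb of exon scaled to the total of bases mapped, so that levels of different genes can be compared.

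The cells were im-scWAT, a line of mouse preadipocytes from inguinal subcutaneous white fat that had been immortalized with large T antigen. The time course held 6 libraries, 1 each at day 0, day 4 and day 8 of differentiation with the label rosiglitazone plus or minus. Rosiglitazone (ROS) is a PPARγ ligand that was used at 0.5 μM with the induction medium from day 0 and, by the labels, taken away at day 7. The paper's methods differ here, as they keep ROS on im-scWAT cells to day 8 and give the removal at day 7 for primary preadipocytes. Differentiated libraries called with ROS are those with the label plus. Since ROS began with induction, the 2 libraries of day 0 are preadipocytes that differ in label only and were used as a pair. All differentiated cells had insulin and T3 throughout, and dexamethasone, indomethacin and 3-isobutyl-1-methylxanthine in the induction medium. The labels of these 6 libraries name no virus, and they are called untransduced here. A further 5 libraries were of im-scWAT cells at day 8 with ROS that carried a short hairpin RNA against mouse Jmjd1a and, by retrovirus, human JMJD1A, a histone H3K9 demethylase. These were WT A and WT B with wild-type JMJD1A, and 1 library each of S265A (the serine phosphorylated by protein kinase A changed to alanine), S265D (the same serine changed to aspartate) and S265D-H1120Y (also without the catalytic histidine). All libraries came from 1 immortalized line, and each differentiated condition of the time course and each mutant had 1 library. The labels do not say whether the pairs came from separate cultures, so spread between these libraries may be technical. The pairs were not alike in spread. Pearson r over 13208 genes was 0.994 for the libraries of day 0 and 0.916 for WT A and WT B. Among genes with over 100 reads in both libraries, the squared gap of the middle gene was 9.52-fold that of counting error at day 0. In the WT pair it was 97.2-fold, and Ucp1 had an FPKM of 12.1 in WT A and 0.724 in WT B. Whether the WT spread is technical was not tested.

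IGF1 and IGF2 are secreted growth factors that act through the receptor tyrosine kinase encoded by Igf1r, a close relative of the insulin receptor, while the receptor encoded by Igf2r, also the mannose 6-phosphate receptor, takes up IGF2 for degradation. The IGF binding proteins are secreted carriers that hold IGFs in the extracellular space, prolong their life and limit or deliver them to the receptor, and IGFBP7 is a relative with low affinity for IGFs. In fat, IGF1 promotes growth of preadipocytes and their differentiation.

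The depth was 3.10 to 5.29 Gb of mapped bases with a median of 4.64 Gb, and 3 reads of 100 bases on 2 kb of exon gave an FPKM between 0.0283 and 0.0483. The 2 libraries of day 0 lay close together, with 0 of the 9 members tested 2-fold or more apart (1.98% of all genes were), whereas WT A and WT B were 2-fold or more apart in 6 of 9 (22% of all genes), with WT A above WT B in Igf1, Igfbp2 and Igfbp3 (8.9% of genes) and below it in Igf1r, Igf2r and Igfbp4 (13.1%). Adipocyte markers identified the differentiated cells, since 7 of 8 rose from day 0 to day 4 and again 7 of 8 from day 0 to day 8, with summed FPKM of 281 to 284 at day 0 and 11390 to 35541 at days 4 and 8, most of it from Fabp4. Of 6 preadipocyte markers, 3 fell and 1 (Pdgfra) rose from day 0 to day 4, and 3 fell and none rose from day 0 to day 8. The macrophage markers Ptprc and Emr1 and the muscle marker Myog were at 0 in all 11 libraries. Cd68, also a marker of macrophages, had an FPKM of 0.541 to 21.7, with the 5 highest values in transduced cells, and the muscle actin Acta1 reached 19.3 in WT B. Kdm3a, the mouse gene of JMJD1A, was at 13.0 (S265A) to 28.5 (S265D-H1120Y) in transduced cells and 21.1 in untransduced cells of day 8 with ROS, so that 3 of the 5 were below the untransduced library and 2 above it. Since the human cDNA may add to these reads, the level is no check of the knockdown.

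The members for which the day of differentiation passed the test are introduced by their promoters, shown because these genes moved in opposite directions in the same cells. Each run is the 250 bases before the RefSeq start (table of GRCm38.p6), 5′ to 3′ along the gene, and each was found exactly once on its chromosome of mm9, the build of the deposited files, at the coordinates given. Capitals mark the core letters of a TATA box (which is TATAAA), of a GC box (searched as GGGCGG) or of a box named by its own letters (CCAAT), each looked for on either strand. Igfbp3 is at chr11:7113927-7114176 (minus strand), Igfbp4 at chr11:98902308-98902557 (plus), Igf1r at chr7:75096893-75097142 (plus), Igf2r at chr17:12962573-12962822 (minus) and Igfbp6 at chr15:101974367-101974616 (plus).
Igfbp3: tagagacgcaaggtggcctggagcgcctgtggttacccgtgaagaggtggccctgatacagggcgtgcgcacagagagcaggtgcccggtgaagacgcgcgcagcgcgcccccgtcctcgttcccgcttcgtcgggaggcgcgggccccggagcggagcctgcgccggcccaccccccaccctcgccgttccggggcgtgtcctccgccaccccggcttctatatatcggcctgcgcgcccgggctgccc
Igfbp4: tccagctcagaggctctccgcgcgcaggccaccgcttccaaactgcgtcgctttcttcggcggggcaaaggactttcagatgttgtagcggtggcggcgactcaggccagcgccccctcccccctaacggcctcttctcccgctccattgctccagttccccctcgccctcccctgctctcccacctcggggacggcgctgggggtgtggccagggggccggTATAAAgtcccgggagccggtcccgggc
Igf1r: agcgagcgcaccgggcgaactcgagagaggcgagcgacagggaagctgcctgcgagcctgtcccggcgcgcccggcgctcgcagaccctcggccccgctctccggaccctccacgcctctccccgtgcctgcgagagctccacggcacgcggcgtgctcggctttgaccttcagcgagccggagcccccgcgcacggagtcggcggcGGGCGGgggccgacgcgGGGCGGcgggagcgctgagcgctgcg
Igf2r: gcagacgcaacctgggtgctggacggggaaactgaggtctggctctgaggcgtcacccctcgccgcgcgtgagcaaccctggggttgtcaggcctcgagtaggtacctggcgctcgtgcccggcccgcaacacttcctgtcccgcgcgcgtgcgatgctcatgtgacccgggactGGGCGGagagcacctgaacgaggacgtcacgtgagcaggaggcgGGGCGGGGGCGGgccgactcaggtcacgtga
Igfbp6: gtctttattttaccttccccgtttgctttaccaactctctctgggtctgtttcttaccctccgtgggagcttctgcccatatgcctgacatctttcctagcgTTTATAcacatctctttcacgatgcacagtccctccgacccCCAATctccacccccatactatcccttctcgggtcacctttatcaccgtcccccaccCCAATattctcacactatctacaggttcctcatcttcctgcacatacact

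The windows of both receptors held the GC box GGGCGG, in 2 copies in Igf1r and 3 in Igf2r, and those of Igfbp3, Igfbp4 and Igfbp6 held none. GGGCGG was in 32.7% of 32851 promoter windows of the same length, searched on both strands. TATAAA, in 12.4% of windows, was in Igfbp4 and Igfbp6, and CCAAT, in 33.8%, was in Igfbp6 in 2 copies. Of the other members, Igfbp7 had 4 copies of GGGCGG, Igfbp2 had 3 in 1 of its windows and Igfbp5 had none of these motifs. Igf1 had 1 copy of CCAAT and no GGGCGG. Igf2 had 2 copies of GGGCGG and 1 of CCAAT in 1 window, 1 copy of GGGCGG in another, and none of these motifs in its remaining windows. These are matches of letters in a short window and not sites of binding.

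Among the ligands, only Igf1 was at a level that could be followed, and it did not pass the test with the day of differentiation. Igf1 (mm9, chr10:87323856-87399792, plus strand) had an FPKM of 1.19 and 0.888 in the libraries of day 0, 1.36 with ROS and 2.84 without ROS at day 4, and 0.708 with ROS and 1.99 without ROS at day 8. The values of day 8 lay on both sides of those of day 0, and those of day 4 lay above them. The log2 difference in FPKM + 0.1 was 0.87 ± 0.56 (SE) from day 0 to day 4 and 0.20 ± 0.56 from day 0 to day 8 (limma with Benjamini-Hochberg adjustment, adjusted p = 0.267 and 0.785).

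Igf2 (chr7:149836673-149846940, minus strand), the fetal growth factor that is expressed from the paternal allele, stayed below an FPKM of 0.1 in all 11 libraries. Its FPKM went from 0.00551 in S265A to 0.0859 in WT A, which rest on 108 and 1178 mapped bases, or 1.08 and 11.8 reads of 100 bases. It was left out of the tests, and no fold is given for it.

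Both receptors fell by day 8. Igf1r (chr7:75097143-75378553, plus strand) had an FPKM of 4.00 and 4.12 at day 0, 1.82 with ROS and 3.01 without ROS at day 4, and 0.974 with ROS and 1.22 without ROS at day 8. Each later day lay below the earlier one in both cultures. The means were 4.06 ± 0.0791, 2.41 ± 0.844 and 1.10 ± 0.175 (SD, n = 2 libraries a day), and the log2 difference was -0.77 ± 0.27 (SE) at day 4 (limma, adjusted p = 0.0781) and -1.80 ± 0.27 at day 8 (adjusted p = 0.00664). Igf2r (chr17:12875272-12962572, minus strand) was at 30.1 and 30.2, then 16.2 with ROS and 17.7 without, then 10.6 with ROS and 12.1 without. Its means were 30.1 ± 0.108, 16.9 ± 1.06 and 11.3 ± 1.00 (SD, n = 2), and it fell by 0.83 on the log2 scale at day 4 (SE 0.15, limma, adjusted p = 0.0131) and by 1.40 at day 8 (adjusted p = 0.00269). The 3 days did not overlap for either receptor, and Igf2r had the higher level in all 11 libraries.

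The binding proteins changed places. Igfbp3, the main carrier of IGFs in serum, and Igfbp4, which binds IGFs until it is cut by the protease PAPP-A, were minor in preadipocytes. They became the leading binding proteins beside Igfbp7 in untransduced differentiated cells. In the transduced library WT B, also of day 8, Igfbp3 was at 7.87 and thus below both libraries of day 0. Igfbp3 (chr11:7106096-7113926, minus strand) had an FPKM of 15.2 and 16.2 at day 0, 175 with ROS and 279 without ROS at day 4, and 108 with ROS and 259.9 without ROS at day 8. All 4 differentiated cultures lay far above both libraries of day 0. The means were 15.7 ± 0.729, 227 ± 73.5 and 184 ± 107 (SD, n = 2), and Igfbp3 rose by 3.81 ± 0.46 (log2, SE) at day 4 and 3.41 ± 0.46 at day 8 (limma, adjusted p = 0.00463 and 0.00515).

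Igfbp4 (chr11:98902574-98913957, plus strand) had an FPKM of 5.30 and 5.41 at day 0, 142 with ROS and 168 without ROS at day 4, and 108 with ROS and 127 without ROS at day 8. It had the largest rise of the 9 members tested at both days, and the cultures with and without ROS lay close together. The means were 5.36 ± 0.0835, 155 ± 18.7 and 117 ± 13.9 (SD, n = 2), and the log2 difference was 4.83 ± 0.17 (SE) at day 4 and 4.42 ± 0.17 at day 8 (limma, adjusted p = 0.000202 and 0.000218).

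Igfbp6, which prefers IGF2 over IGF1, and Igfbp7 went the other way from day 0 to day 4. Igfbp6 (chr15:101974617-101979943, plus strand) had an FPKM of 51.7 and 55.4 at day 0, 9.02 with ROS and 12.4 without ROS at day 4, and 10.8 with ROS and 38.4 without ROS at day 8. It fell by 2.33 on the log2 scale at day 4 (SE 0.60, limma, adjusted p = 0.0345), and at day 8 the difference was -1.39 ± 0.60 (adjusted p = 0.110). The library of day 8 without ROS lay nearer to day 0 than to day 4, and the library with ROS did not. Igfbp7 (chr5:77778265-77837070, minus strand) had 231 and 254 at day 0, 96.6 with ROS and 129 without ROS at day 4, and 76.6 with ROS and 167 without ROS at day 8. Both later days lay below day 0, with log2 differences of -1.12 ± 0.39 and -1.10 ± 0.39 that did not pass the test (limma, adjusted p = 0.0793 and 0.0714). Each library of day 8 moved these values. Without the one without ROS, the difference from day 0 was -2.30 for Igfbp6 and -1.66 for Igfbp7. Without the one with ROS, it was -0.48 and -0.54. With ROS as a further term in the fit, Igfbp7 passed at both days (limma, adjusted p = 0.0164 and 0.0143) and Igfbp6 at day 8 (0.0279), and with median-of-ratios scaling Igfbp7 passed at both days (0.0486 and 0.0475). The level of Igfbp7 was above that of 97.9% and 98.0% of genes listed at an FPKM of 0.1 or more in the libraries of day 0.

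Igfbp2 and Igfbp5, neighbours on chromosome 1 that are transcribed toward each other, were low throughout the time course. Igfbp5 (chr1:72904639-72921439, minus strand), the best conserved of the family, had an FPKM of 0.178 and 0.109 at day 0, 1.61 with ROS and 2.15 without ROS at day 4, and 0.0765 with ROS and 1.84 without ROS at day 8. The library of day 8 with ROS was thus the lowest of the 6 and the other 3 differentiated libraries were the highest. Igfbp2 (chr1:72871077-72899045, plus strand) had 0.0329 and 0.0327 at day 0, 0.211 with ROS and 0.294 without ROS at day 4, and 0.0299 with ROS and 0.263 without ROS at day 8. Its values of day 0 and of day 8 with ROS rest on 198 to 200 mapped bases, or about 2 reads each. Neither gene passed the test (limma, adjusted p from 0.0771 to 0.369), and at day 8 each library decided the value. Without the one with ROS, the difference from day 0 was 3.01 for Igfbp5 and 1.45 for Igfbp2 (limma, adjusted p = 0.00509 and 0.0101), and without the other it was -0.45 and -0.032.

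**Figure D1:**
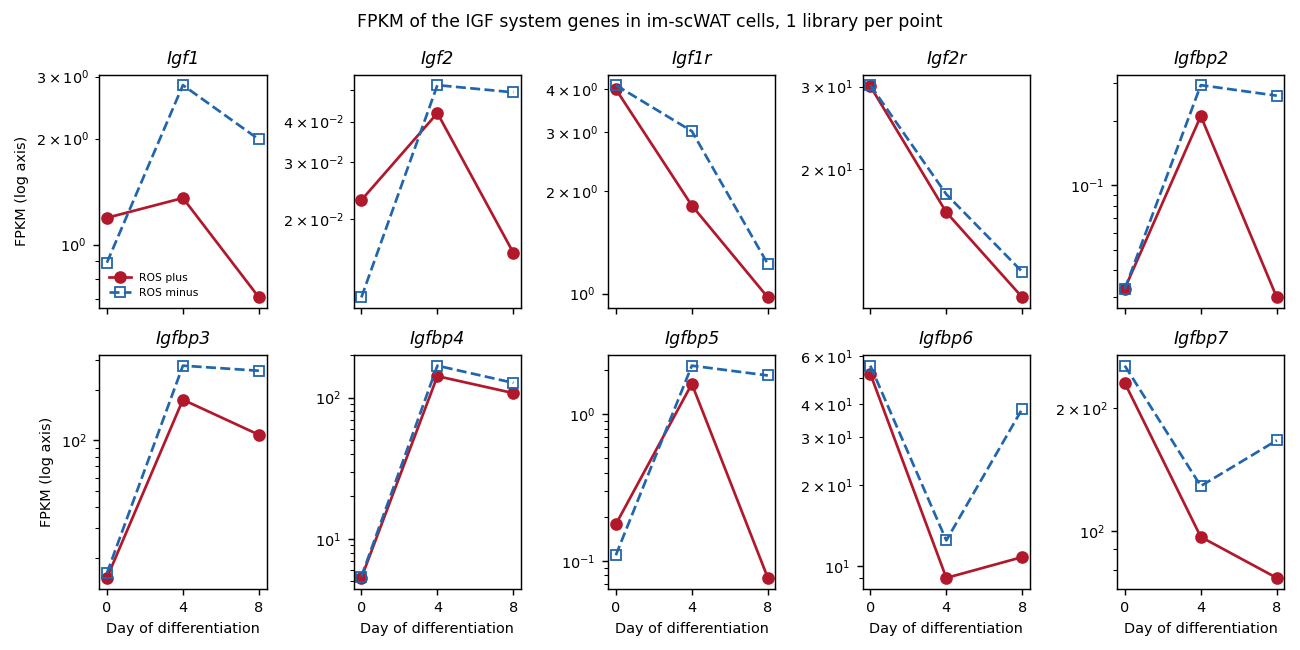
FPKM of the 10 genes (vertical log axis, with its own range in each panel) against the day of differentiation, with filled circles for the libraries labelled ROS plus and open squares for ROS minus, 1 library per point. Igfbp3 and Igfbp4 rise from day 0 to day 4 in both cultures and Igf1r and Igf2r fall at each step, while the ROS plus line ends below the ROS minus line in each panel, by the largest factor in Igfbp5 (0.0765 against 1.84).

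In counts, 5 of the 9 members tested lay above both libraries of day 0 in both libraries of day 4 (39.7% of all genes did) and 4 below them (38.9%), and at day 8 it was 2 above (37.4%) and 4 below (39.4%). By size, 4 were 2-fold or more higher (15% of all genes) and 2 lower (13.2%) at day 4, and 3 higher (17.6%) and 4 lower (15.5%) at day 8. By the test, 2 of the 9 rose and 2 fell from day 0 to day 4, where 19.8% of 16400 genes rose and 16.7% fell. From day 0 to day 8, 2 rose and 2 fell, where 23.6% of genes rose and 22% fell. From day 4 to day 8 none of the 9 passed the test. No member was 2-fold or more higher than at day 4 (4.21% of genes), and 2, Igf1r and Igfbp5, were lower (1.96%), while 0.104% of all genes rose and 0.0061% fell, and 3501 of 16400 genes, Igf1r and Igf2r among them, had an unadjusted p under 0.05. The median log2 difference over the 9 members was 0.87 at day 4 and 0.20 at day 8, against 0.01 and -0.03 over all genes. The shares of members called by the test at days 4 and 8 against day 0, 2 of 9 in each direction, lie near those of all genes and are no result about the IGF genes as a set. In the day fit the spread includes the difference between cultures with and without ROS. Without either library of day 0, Igf2r, Igfbp3 and Igfbp6 did not pass at day 4 (limma, adjusted p without the first and second 0.0859 and 0.0896 for Igf2r, 0.0523 and 0.0530 for Igfbp3, 0.151 and 0.165 for Igfbp6), and Igf1r and Igfbp3 did not at day 8 (0.0591 and 0.0587, 0.0532 and 0.0503). Without the library of day 4 with or without ROS, Igf2r (0.0927 and 0.0641) and Igfbp6 (0.163 and 0.106) did not pass at day 4. Igfbp6 did not pass there with a pseudocount of 0.01 or with no minimum FPKM either (0.0511 and 0.170). In a fit on all 11 libraries neither receptor nor Igfbp3 passed, with adjusted p of 0.372 and 0.0953 for Igf2r and Igfbp3 at day 4, and 0.0662, 0.159 and 0.0936 for Igf1r, Igf2r and Igfbp3 at day 8. With ROS as a further term in the fit all 9 members passed at day 4. Igfbp4 passed at both days in each of 16 settings.

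The make-up of the binding protein transcripts followed from these changes. The FPKM of Igfbp2 to Igfbp7 summed to 303 and 331 at day 0, and 76.1% and 76.7% of that sum was Igfbp7, with 17.1% and 16.7% from Igfbp6. At day 4 the sum was 424 with ROS and 591 without ROS, of which Igfbp3 was 41.2% and 47.2% and Igfbp4 33.5% and 28.5%. Without Igfbp7, the sum over Igfbp2 to Igfbp6 went from 72.4 and 77.2 at day 0, mostly Igfbp6 (71.4% and 71.8%), to 227 at day 8 with ROS and 428 without ROS, mostly Igfbp3 (47.7% and 60.8%) and Igfbp4 (47.5% and 29.7%). Transcript levels are not levels of secreted protein, and in bulk RNA fewer cells of a type and less RNA per cell cannot be told apart.

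**Figure D2:**
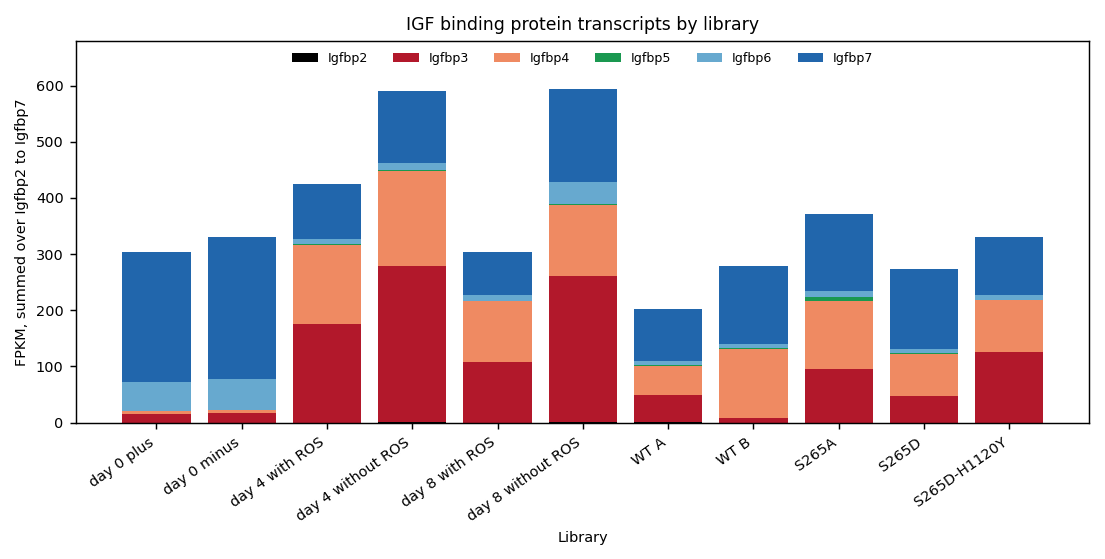
Stacked bars of the FPKM of Igfbp2 to Igfbp7 (vertical axis, summed) in each of the 11 libraries, 1 bar per library. Igfbp7 and Igfbp6 fill most of both bars of day 0, and Igfbp3 and Igfbp4 most of the 4 untransduced bars of days 4 and 8, of which the 2 without ROS are the tallest at 591 and 594. In the transduced cells Igfbp7 is 31.0% to 52.0% of the bar.

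The comparison of cultures with and without ROS asks how IGF genes differ between beige and white differentiation of the same cells. All 9 members tested were lower with ROS than without it at both days, a pattern found in 45.9% of 16400 genes. At day 4, 1 member was 2-fold or more lower, Igf1 with a log2 difference of -1.01 (1.88% of all genes were). At day 8, 6 of 9 were 2-fold or more lower, namely Igf1, Igfbp2, Igfbp3, Igfbp5, Igfbp6 and Igfbp7, against 10.9% of all genes, and none was 2-fold or more higher (2.9% of all genes). The median over the members was -0.41 at day 4 and -1.27 at day 8, and over all genes it was -0.06 and -0.20.

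Igfbp5 differed most, with an FPKM of 0.0765 with ROS and 1.84 without ROS at day 8. These values rest on about 23 and 468 reads, a ratio of 23.8 with a 95% counting interval of 15.7 to 37.9, which covers counting error only. With ROS, Igfbp5 was 21.1-fold lower at day 8 than at day 4, and without ROS it was 1.17-fold lower. Igfbp6 was 3.56-fold lower with ROS at day 8, where the culture without ROS had gone up from 12.4 to 38.4 and that with ROS from 9.02 to 10.8. Igf1 was 2.81-fold, Igfbp3 2.41-fold and Igfbp7 2.18-fold lower with ROS. For Igfbp2, about 2 reads with ROS and 15 without ROS gave a ratio of 8.77, with a counting interval of 2.04 to 79.0.

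The other 3 genes, Igfbp4 and both receptors, differed little at day 8. The log2 difference was -0.24 for Igfbp4, -0.30 for Igf1r and -0.18 for Igf2r, near the median of all genes. Scaling the libraries by the median of ratios shifted all genes by 0.19 at this day and left 8 of 9 members lower with ROS, Igf2r being then higher by 0.011, while the 6 genes named above differed by -0.93 to -3.31. At day 4 all 9 stayed lower under that scaling, and Igf1 was then at -0.95.

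With 1 library a condition, the spread in the test came from the pair of day 0, which differed by a log2 of -0.14 to 0.41 in these genes. In limma 0 of 16400 genes passed at day 4 or at day 8 (smallest adjusted p 0.417 and 0.0972), although 1862 and 5011 genes had an unadjusted p under 0.05. Of the members, Igfbp2, Igfbp3, Igfbp5 and Igfbp6 had an adjusted p of 0.0972 at day 8. With genes limited to those that reach an FPKM of 1, Igfbp3, Igfbp5 and Igfbp6 passed at day 8 (limma, adjusted p = 0.0477, 0.0466 and 0.0466). The change in the ROS difference from day 4 to day 8 was -3.07 ± 0.42 (log2, SE) for Igfbp5, -1.36 ± 0.14 for Igfbp6 and -1.14 ± 0.10 for Igfbp2 (limma, adjusted p = 0.261, 0.256 and 0.256), and none of the 9 passed.

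**Figure D3:**
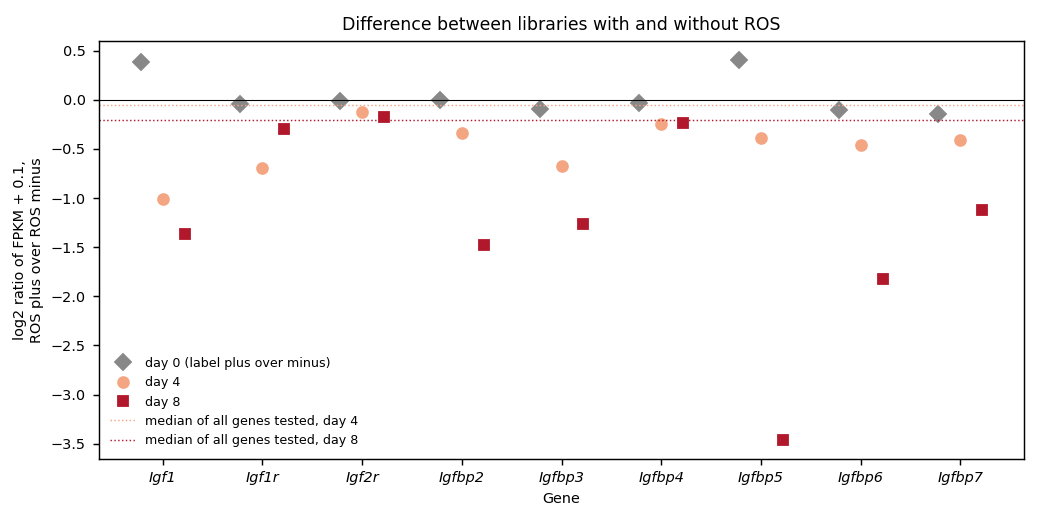
Log2 ratio of FPKM + 0.1 in the library labelled ROS plus over the one labelled ROS minus (vertical axis) for 9 genes, with grey diamonds for day 0, light circles for day 4 and dark squares for day 8, 1 pair of libraries per point, and dotted lines at the median of all genes tested. The points of days 4 and 8 all lie below 0 and the diamonds between -0.14 and 0.41, with the lowest square, Igfbp5, at -3.46.

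Markers of preadipocytes moved with ROS in the same direction. All 6 (Pdgfra, Pdgfrb, Cd34, Ly6a, Thy1 and Dlk1) were lower with ROS at both days, and their summed FPKM was 192 with ROS and 248 without ROS at day 4, and 139 with ROS and 571 without ROS at day 8, against 554 and 622 at day 0. Ly6a made most of each sum, at 495 without ROS at day 8 and 424 and 484 at day 0. In that library of day 8 Pdgfrb (16.1), Cd34 (19.8), Thy1 (4.43) and Dlk1 (0.374) lay below both values of day 0. Pdgfra (35.2) lay above them. The summed FPKM of the adipocyte markers was 35541 with ROS and 11390 without ROS at day 8, where 5 of 8 were higher with ROS. Fabp4 made most of both sums, at 31402 and 7631. The beige markers Ucp1, Cidea and Cox8b were higher with ROS at day 8 in 3 of 3. The part of these cell markers in the ROS difference of Igfbp6, Igfbp7 and the other members was not tested.

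In transduced cells the comparison asks how JMJD1A that cannot be phosphorylated at S265 (S265A), that mimics phosphorylation (S265D) or that also lacks activity (S265D-H1120Y) bears on the same genes. Igfbp5 was the only one of the 9 members tested that lay above both WT libraries in all 3 mutants (6.15% of genes did). Its FPKM was 1.27 and 1.12 in the WT libraries A and B, against 6.90 for S265A, 3.00 for S265D and 1.63 for S265D-H1120Y. S265A was 5.45-fold above WT A and 6.13-fold above WT B (0.841% of all genes were 2-fold or more above both), and S265D was 2.37-fold and 2.67-fold above them (1.09%). Over the WT pair, at 1.19 ± 0.0999 (SD, n = 2), the log2 difference was 2.44 ± 0.39 (SE) for S265A and 1.26 ± 0.39 for S265D (limma, adjusted p = 1 and 1). From S265D to S265D-H1120Y it was -0.84 ± 0.45 (limma, adjusted p = 1).

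Igfbp3 was higher than the WT mean in each mutant, but the WT libraries differed by 6.23-fold in this gene. Its FPKM was 49.0 in WT A but 7.87 in WT B, and S265A had 95.2, S265D 46.5 and S265D-H1120Y 126.5. S265D lay between the WT libraries, and the other mutants lay above both, S265D-H1120Y by 2.58-fold over WT A (2.27% of genes were 2-fold or more above both). The log2 difference from WT was 2.27 ± 1.39 (SE) for S265A and 1.24 ± 1.39 for S265D, and from S265D to S265D-H1120Y it was 1.44 ± 1.60 (limma, adjusted p = 1 in each). With WT A as the sole control, the difference of S265D was -0.077, and with WT B it was 2.55.

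Igf1 had an FPKM of 12.1 in WT A and 1.20 in WT B, with S265A at 6.77, S265D at 5.49 and S265D-H1120Y at 6.68, all between them. Igf2r, at 11.8 in WT A and 32.4 in WT B, was 21.1, 18.2 and 25.4 in the mutants in that order, also between them. Igfbp4 went from 51.4 in WT A to 123 in WT B, with 121, 75.2 and 91.0 in the mutants, again within the WT range. Igf1r went from 0.711 in WT A to 1.58 in WT B, and its mutant values of 0.995, 1.54 and 0.998 also lay between these. So for these 4 genes no mutant left the range of the 2 WT libraries. The labels match no WT library to a mutant, and against 1 WT library alone the reading can turn. Igf1 in S265D was 0.452-fold of WT A and 4.57-fold of WT B. Igfbp6, at 6.68 to 10.9, and Igfbp7, at 93.2 to 142, varied less over the 5 libraries, and Igfbp2 was at 0.0207 to 0.0331 in all but WT A, where it was 0.288 from about 14 reads.

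Counts were taken on the log2(FPKM + 0.1) scale, with the WT mean on that scale. In S265A, 2 of 9 members were 2-fold or more above WT (Igfbp3 and Igfbp5, 2.63% of all genes), and the same 2 in S265D (3.4%). On plain FPKM, Igfbp3 in S265D was only 1.63-fold of the WT mean of 28.5 and lay below WT A. In S265D-H1120Y, 1 member, Igfbp3, was 2-fold or more higher than in S265D (3.71%). None was 2-fold or more lower in the 3 comparisons, as 2.52%, 1.59% and 6.04% of genes were. The comparisons of S265A and S265D with WT share the WT libraries and are not independent. With the WT pair as the only replicates, 0 of 16402 genes passed limma in each of the 3 comparisons, and 107, 99 and 187 genes had an unadjusted p under 0.05. Of the 6 preadipocyte markers, 6 were lower in WT A than in WT B (summed FPKM 146 and 569), and the sum was 243 in S265A, 477 in S265D and 213 in S265D-H1120Y. Ly6a made most of each sum, at 116 in WT A and 496 in WT B. The part of the preadipocyte markers in the differences between the WT libraries, and that of Acta1 and Cd68, was not tested.

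**Figure D4:**
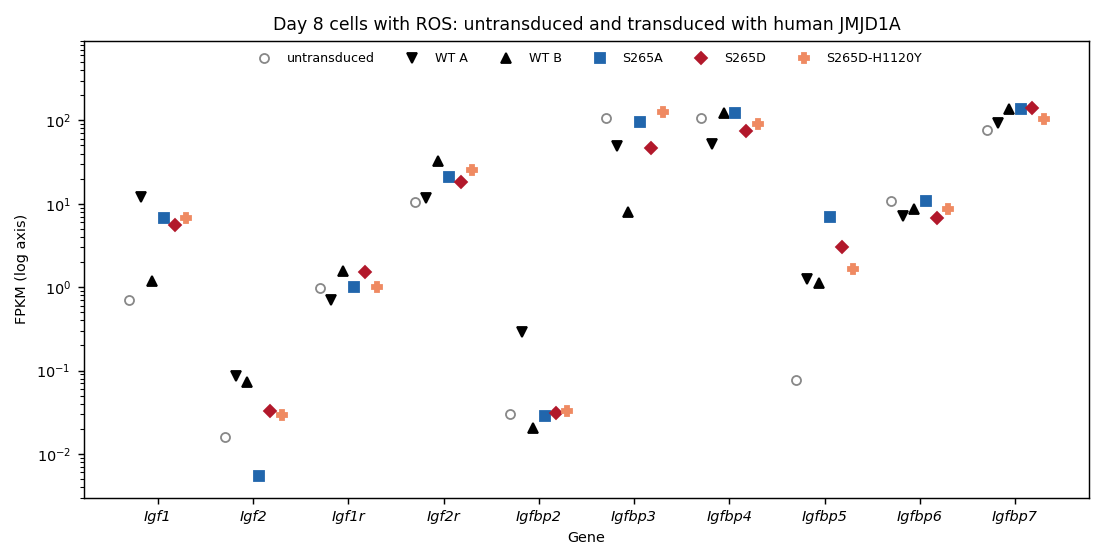
FPKM (vertical log axis) of the 10 genes in 6 libraries of day 8 with ROS, with an open circle for untransduced cells, black triangles for WT A (pointing down) and WT B (pointing up), and a square, a diamond and a plus for S265A, S265D and S265D-H1120Y. For Igfbp5 the untransduced library is lowest at 0.0765 and all 3 mutants lie above both WT libraries, while for Igf1, Igf1r, Igf2r and Igfbp4 the mutants lie between WT A and WT B.

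Set against untransduced cells of day 8 with ROS, all 5 transduced libraries were higher in Igf1, Igf2r, Igfbp5 and Igfbp7, 4 of 9 members (28.6% of genes). Igfbp5 was the one member 2-fold or more higher in all 5 (3.26% of genes), by 14.7-fold in WT B to 90.1-fold in S265A over the 0.0765 of untransduced cells. These folds rest on 1 library, the lowest of all for Igfbp5. Untransduced cells had 1.61 with ROS and 2.15 without ROS at day 4, and 1.84 without ROS at day 8. Those values lay above WT A (1.27) and WT B (1.12). Igfbp3 was 13.7-fold lower in WT B and 1.17-fold higher in S265D-H1120Y. Transduction, knockdown and the culture itself cannot be told apart here, and no test was made.

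Other genes of the pathway were counted from 3 lists. Of 10 genes that govern the availability of IGFs, 8 were tested, and 4 rose and none fell from day 0 to day 4 (19.8% and 16.7% of all genes did), namely Igfals, the partner of the IGF and IGFBP3 complex in serum, Pappa, the protease that cuts IGFBP4, Adam12, a protease that cuts IGFBP3 and IGFBP5, and Tmem219, a receptor of IGFBP3. At day 8, 3 of them had risen and none had fallen (23.6% and 22% of all genes), Pappa being at a log2 difference of 0.84 (limma, adjusted p = 0.0783). Adam12 had an FPKM of 3.83 and 3.71 at day 0, 52.1 with ROS and 54.4 without ROS at day 4, and 40.9 with ROS and 31.5 without ROS at day 8, all 4 later values lying far above both early ones. It rose by 3.78 ± 0.18 (log2, SE, limma, adjusted p = 0.000419) at day 4. Pappa was low, with an FPKM of 0.137 and 0.147 at day 0 and 0.256 to 0.956 later, and Igfals did not exceed 0.496. At day 8, 2 of the 8 genes tested were 2-fold or more lower with ROS (10.9% of all genes were), namely Htra1, a secreted protease that cuts IGFBP5, at 11.3 with ROS and 40.1 without, and Stc1, a relative of the PAPP-A inhibitor stanniocalcin 2, at 0.136 and 0.999. The genes not tested were Igfbpl1, listed at 0 in all 11 libraries, and Igfbp1, the neighbour of Igfbp3 in the genome and a product of liver, which did not exceed 0.0352.

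Of 20 genes of signalling from the IGF1 and insulin receptors, 18 were tested. From day 0 to day 4, 8 rose and 3 fell (19.8% and 16.7% of all genes did). From day 0 to day 8, 5 rose and 3 fell (23.6% and 22% of all genes). Insr, the insulin receptor, went against Igf1r, with an FPKM of 2.74 and 2.70 at day 0, 15.3 with ROS and 15.6 without ROS at day 4, and 13.7 with ROS and 7.10 without ROS at day 8. It rose by 2.46 ± 0.32 at day 4 and 1.82 ± 0.32 at day 8 (log2, SE, limma, adjusted p = 0.00532 and 0.00998). The FPKM of Insr over that of Igf1r was therefore 0.685 and 0.656 in the libraries of day 0, 8.42 with ROS and 5.18 without ROS at day 4, and 14.0 with ROS and 5.81 without ROS at day 8. In transduced cells the ratio was 7.51 to 17.5, so Igf1r was the higher of the pair in preadipocytes only.

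Among the adaptors and kinases downstream, Akt1 and Akt2 changed in opposite directions. Akt1 fell by 1.16 on the log2 scale at day 4 and by 1.07 at day 8, while Akt2, the isoform that serves insulin-driven glucose uptake, rose by 1.30 and 1.89 (limma, adjusted p from 0.00386 to 0.0129). Irs2 and Irs3, substrates of both receptors, rose at both days (limma, adjusted p from 0.000515 to 0.0356). With ROS, Irs2 was 4.14-fold higher at day 8 on the log2(FPKM + 0.1) scale, the only gene of this list past 2-fold there (2.9% of all genes were 2-fold or more higher), opposite to the IGF members. The medians of this list were 0.51 at day 4 and -0.03 at day 8 against day 0, and 0.06 for ROS at day 8.

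Of 12 genes of the Igf2 locus and of imprinted growth control, 9 were tested in the time course. At day 8, where 23.6% of all genes had risen and 22% had fallen, 1 had risen (Cdkn1c, an inhibitor of the cell cycle) and 4 had fallen, namely Dlk1, a marker of preadipocytes, and Igf2bp1, Igf2bp2 and Igf2bp3, the proteins that bind Igf2 mRNA. Igf2bp2 had an FPKM of 17.6 and 17.7 at day 0, 9.94 with ROS and 13.1 without ROS at day 4, and 6.36 with ROS and 9.51 without ROS at day 8, falling at each step in both cultures. The log2 differences at day 8 were -1.22 for Igf2bp1, -1.17 for Igf2bp2 and -1.54 for Igf2bp3 (limma, adjusted p = 0.00363, 0.0172 and 0.00444). All 9 were lower with ROS at both days, as were 45.9% of all genes, with a median of -0.50 at day 8 against -0.20 over all genes. Not all of them differed by much, as Igf2bp1 at day 8 was at 0.825 with ROS and 0.828 without ROS. Median-of-ratios scaling shifts all genes up by a log2 of 0.19 at this day, which is more than that difference. The 3 genes not tested were Ins2, listed at 0 in all 11 libraries, Meg3 and Peg3.

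The members did not share 1 pattern over the 11 libraries. As a description over libraries that share cells and conditions, the Pearson r of log2(FPKM + 0.1) was 0.81 between Igfbp6 and Igfbp7 and -0.72 between Igfbp4 and each of them. The gene most like Igfbp4 in this measure was Lpl, lipoprotein lipase of the adipocyte (r = 0.98), which had an FPKM of 13.1 to 1083. Those most like Igfbp3 were Folh1 and Penk (r = 0.91 for both), and most like Igfbp7 were Dnm1 and Rcn3 (0.99 for both). The genes most like Igf1r were Ralgps2 and Amot (0.98 for both), and like Igfbp6 Lmf2 and Tyro3 (0.97 for both). Reads on the opposite strand were few, since antisense rows held at most 0.569% of the mapped bases of a member summed over all 11 libraries, in Igfbp6. Single libraries could hold more, as Igfbp6 in S265D had 779 antisense and 42695 sense bases.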

How the data were processed

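Total RNA of 11 samples was made into TruSeq libraries and sequenced. The authors aligned reads with BWA to UCSC transcripts and the mm9 genome, kept the better alignment and deposited per-transcript tables of 55419 transcripts, with sense and antisense rows, mapped bases and FPKM. The FPKM values were deposited by the authors as mapped bases per kb of exon, scaled to the total of bases mapped. The mapped bases were deposited by the authors as unnormalised coverage, used here for depth and for counting intervals, with reads taken as 100 bases. Their log values were not used. The authors' representative sense row stood for each gene, and groups came from the labels.

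Differences were taken on log2(FPKM + 0.1), which understates those of low genes, for genes that reached an FPKM of 0.1 in any library compared. limma 3.58.1 (R 4.3.3) was run on all these genes with Benjamini-Hochberg adjustment and a threshold of 0.05. The day fit had 6 libraries, 2 a day, and 3 residual degrees of freedom. The ROS fit had 1 (the pair of day 0) and the transduced fit 1 (the WT pair). Where a condition had 1 library, a fold of 2 or more served as a descriptive call. P-values measure the spread between these libraries, and counting intervals (exact, 95%) cover counting error only.

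All members are named, and genes of the lists where past 2-fold with an FPKM of at least 1, or where 5 or fewer were counted. The values of 1 listed gene are not reported here. The members and lists were chosen with earlier results of these data known. The most alike genes were sought among those with an FPKM of at least 1 in 2 libraries. The alternatives were other pseudocounts (1 and 0.01), minimum FPKM (none and 1), transcript, scaling, intensity trend, samples, a ROS term and leaving out each replicate. The fit was tested on simulated data. Python 3.11.15, numpy 2.4.6, pandas 2.3.3, scipy 1.17.1 and matplotlib 3.10.9 were used.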

Additional observations from a re-analysis of the deposited data

How the results depend on the processing

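Depth limits Igf2 and Igfbp2, and 1 library a condition limits the ROS and mutant comparisons. From day 0 to day 4, 5976 genes passed limma, against 3021 with no minimum FPKM and 1670 in a fit on all 11 libraries, and 4 members passed, against 9 with ROS as a further term. From day 0 to day 8, 7473 genes passed, against 4208 with no minimum and 2878 with all 11 libraries. The Igf1 difference there turned from 0.20 to -0.21 with the transcript of highest mean FPKM. From day 4 to day 8, 18 genes passed, against 131 and 33 with a pseudocount of 1 and 0.01, 33 with no minimum, 45 with a minimum of 1, 10 with the transcript of highest mean, 37 with median-of-ratios scaling, 73 with an intensity trend, 0 with all 11 libraries and 140 with the ROS term, and 2 members were 2-fold lower, against 0 with a pseudocount of 1 and 1 with that scaling. For ROS at day 4, 1 member was 2-fold lower, against 0 with a pseudocount of 1, with the transcript of highest mean or with that scaling, and with no minimum 1 member and 1434 genes passed. For ROS at day 8, 1 member and 2042 genes passed with no minimum and 3 and 895 with a minimum of 1, and Igf2r went from -0.18 to 0.011 under that scaling. With a pseudocount of 0.01, 1 member was 2-fold lower in S265A and 1 in S265D, and with a pseudocount of 1 only 1 was 2-fold higher in S265D. The causes were not tested. Differences of mutants from WT A and from WT B alone were given, but no analysis took 1 WT library as the matched control of a mutant. In the order of the samples WT A stands before S265A, and WT B before S265D and S265D-H1120Y. The labels state no such match, and whether each WT library belongs to its own set of mutants was not tested (the fit with ROS as a further term takes ROS as a factor and moved calls as given above).

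Leaving out each library in turn gave 1 to 3 members 2-fold lower, 1 to 7 passing and 1407 to 8347 genes from day 0 to day 4, and 2 to 4, 2 to 6 and 2147 to 9150 from day 0 to day 8, where Igf1 went from -0.48 to 0.89, Igfbp2 from -0.032 to 1.45 and Igfbp5 from -0.45 to 3.01. From day 4 to day 8, 0 to 1 members were 2-fold higher, 0 to 5 lower, 0 to 2 passed with 0 to 595 genes, and Igf1 went from -1.36 to 0.014, Igfbp2 from -1.43 to 0.051, Igfbp3 from -1.03 to 0.24 and Igfbp7 from -0.54 to 0.58. Without WT A or WT B, with the spread taken from the day 0 pair of untransduced preadipocytes, S265A had 0 to 1 members 2-fold lower, with Igf1 from -0.83 to 2.40, Igf1r from -0.62 to 0.43, Igf2r from -0.62 to 0.83, Igfbp4 from -0.022 to 1.24 and Igfbp7 from -0.0074 to 0.55. S265D had 0 to 2, with Igf1 from -1.13 to 2.10, Igf1r from -0.036 to 1.01, Igf2r from -0.83 to 0.62, Igfbp3 from -0.077 to 2.55 and Igfbp4 from -0.71 to 0.55.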
